A study of Mus musculus with 10 samples.

Results

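The 10 genes described here are expressed by the blood vessels of the kidney or signal to them. They are Pecam1, Cdh5, Kdr, Flt1, Emcn, Ehd3, Plvap, Tek and Eng, which mark endothelial cells, and Vegfa, the main growth factor those cells respond to. They were taken by symbol from the table of normalized counts, which held 10 of 10 among its 13299 genes, and each passed the filter on low values that left 13236 genes for testing. Whole kidney of Rragc S74N/+ mice (5 samples), which carry 1 active S74N allele of the GTPase RagC beside a wild-type allele, was set against whole kidney of wild-type Rragc +/+ mice (5 samples). All were aged 1.5 years and of the C57BL/6 background. The allele is a germline knock-in present in every cell, so endothelium, tubules and circulating blood cells of a mutant mouse all carry it. The labels give neither the sex of the mice nor a number for each animal, so the replicate numbers used here follow the accession order and pair no samples. The comparison asks which vascular genes of the old kidney differ when the nutrient signal that RagC passes to the growth regulator mTORC1 is mildly raised.

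Endothelium lines every kidney vessel, but its forms differ along the vascular tree. Podocytes and tubule cells secrete VEGFA, which acts on the receptor VEGFR2 (Kdr) of the neighbouring capillaries, while VEGFR1 (Flt1) binds the same ligand tightly, signals weakly and limits how much of it reaches VEGFR2. Peritubular capillaries have fenestrae, small pores closed by a diaphragm that is built from PLVAP, whereas the fenestrae of mature glomerular capillaries mostly lack that diaphragm. Angiopoietins act on the receptor TIE2 (Tek) to keep vessels quiescent, and endoglin (Eng) helps the receptor ALK1 respond to circulating BMP ligands, whose usual targets are the ID genes.

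Recovered reads numbered 4488493 to 5797251 per library in the 8 libraries where they could be recovered, and there each member was counted with 49 to 1308 reads. Rragc itself averaged 146 ± 42.7 normalized counts (SD, n = 5) in wild-type and 124 ± 26.4 (SD, n = 5) in mutant kidneys (limma, adjusted p = 0.51), but reads at the 3′ end do not show the allele, so these values do not check the labels. Rragc S74N/+ replicate 1 stood apart from the other libraries. Myh11, a smooth muscle myosin, had 374 normalized counts there against 79.7 to 87.6 in the other mutant kidneys, and the summed pericyte and mesangium markers reached 2772 against 1496 to 1554. Its summed red cell markers were at 2795 against 11022 to 13809. Among the 10 genes, this kidney was the highest of its group in 7 (Pecam1, Cdh5, Flt1, Emcn, Tek, Eng and Vegfa) and the lowest in 2 (Kdr and Plvap), so results on the 10 genes are given with and without it. Rragc +/+ replicate 2 was the lowest of its group in 7 of the genes and the highest in Kdr and Plvap. At an adjusted p under 0.05 (limma on log2 of the normalized count plus 1, adjusted over all tested genes), 6.03% of the 13236 genes differed between genotypes, 3.45% higher and 2.58% lower in the mutant kidneys. With the libraries scaled to equal totals, 76.1% of the calls were higher rather than 57.3%, and the median of all fold changes moved from -0.01 to 0.06 on the log2 scale.

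Plvap was the member that passed the threshold, and it was lower in the mutant kidneys. None of the 10 was called higher and 9 did not pass, although 7 of the 10 log2 fold changes lay above zero and their median was 0.18, against -0.01 over all tested genes. Without Rragc S74N/+ replicate 1, 6 lay above zero and the median was 0.08. Kdr was lower in each mutant kidney than in any wild-type kidney, as were 4.01% of all tested genes, and just missed the threshold. The other 8 genes overlapped between genotypes. In whole tissue, fewer cells of a type and less RNA per cell cannot be told apart.

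**Figure D1:**
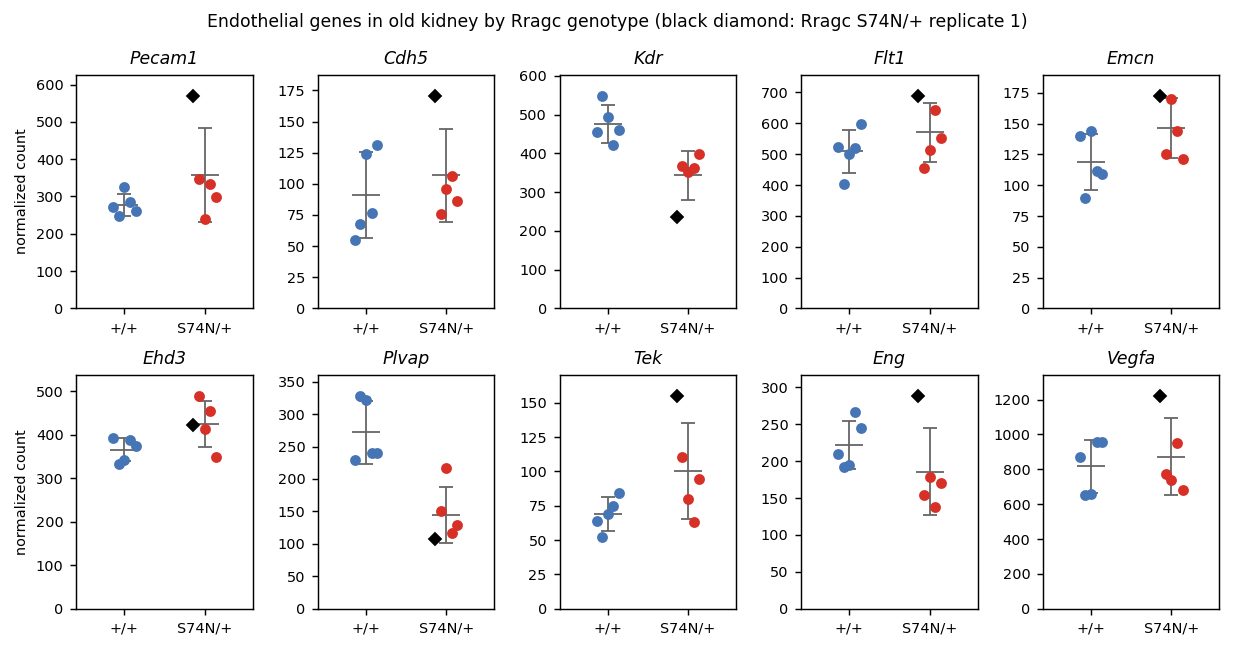
Normalized counts (vertical axes, from 0) of the 10 genes in each kidney, with Rragc +/+ in blue, Rragc S74N/+ in red and Rragc S74N/+ replicate 1 as a black diamond; lines mark the mean and the SD of 5 kidneys. The groups part for Kdr and Plvap, and the black diamond is the top mutant point in 7 panels.

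Plvap encodes the protein of the fenestral diaphragm and of the similar diaphragm over endothelial caveolae. Its normalized counts were 229, 328, 322, 239 and 241 in the wild-type kidneys of replicates 1 to 5. They were 108, 151, 217, 117 and 129 in the mutant kidneys. The highest mutant value, that of replicate 3, stayed below the lowest wild-type value, which was also the case for 4.01% of all tested genes in this direction. The mean dropped by 46.8%, from 272 ± 48.5 (SD, n = 5) to 145 ± 43.6 (SD, n = 5), a log2 fold change of -0.93 ± 0.18 (SE, 95% interval -1.32 to -0.55; adjusted p = 0.0088, limma). Without Rragc S74N/+ replicate 1 the log2 fold change was -0.84 ± 0.17 (SE; adjusted p = 0.0049, limma). When each library was scaled to an equal level of 32 other pan-endothelial genes, Plvap was still lower by -0.95 on the log2 scale (limma, adjusted p = 0.014), and on that scale 1.38% of all tested genes were called lower. In all 24 alternative fits Plvap kept its direction and passed the threshold in each.

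Partners of PLVAP that shape caveolae and vesicles were counted beside it. Of 11 tested genes of the caveola and fenestra list, 1 rose and none fell, and the list median was 0.05. Of all tested genes, 3.45% rose. The gene that rose was Cav2, a caveolin that partners caveolin-1. It went from 41.3 ± 12.9 (SD, n = 5) to 85.6 ± 20.5 (SD, n = 5) normalized counts, a log2 fold change of 1.05 ± 0.23 (SE; adjusted p = 0.017, limma), with overlapping groups. Ehd1, a membrane-shaping ATPase and the list's most abundant gene, did not pass (limma, adjusted p = 0.61).

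Kdr encodes VEGFR2, the receptor that carries most VEGFA signalling into endothelial cells. Its normalized counts were 454, 548, 492, 421 and 461 in replicates 1 to 5 of the wild-type group. In the mutant group they were 236, 368, 351, 362 and 397. The 5 mutant kidneys lay below all 5 wild-type kidneys, as was the case for 4.01% of all tested genes. Mutant replicate 1 was far below the other 4. Means of 475 ± 48.0 and 343 ± 62.2 (SD, n = 5 each) gave a log2 fold change of -0.49 ± 0.14 (SE, 95% interval -0.78 to -0.19), which missed the threshold (limma, adjusted p = 0.051). Without Rragc S74N/+ replicate 1 it was -0.36 ± 0.11 (SE; adjusted p = 0.052, limma). Over the alternative fits the adjusted p of Kdr ran from 0.042 to 0.14 and fell below the threshold in 4 of 24, and the log2 fold change ran from -0.55 to -0.36. edgeR and DESeq2 on the recovered reads of 8 kidneys gave adjusted p-values of 0.087 and 0.062 for Kdr, where they called 6.43% and 10.6% of all genes.

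Flt1 encodes VEGFR1, the tighter-binding receptor for VEGFA. Wild-type kidneys had 522, 403, 501, 520.5 and 598 normalized counts of Flt1. Mutant kidneys had 689, 455, 513, 644 and 552. The groups overlapped, and the log2 fold change was 0.16 ± 0.14 (SE, 95% interval -0.13 to 0.45; adjusted p = 0.49, limma), or 0.09 ± 0.13 without Rragc S74N/+ replicate 1 (SE; adjusted p = 0.73, limma).

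Kdr and Flt1 share their ligand and lie on the same mouse chromosome, and their fold changes lay on opposite sides of zero. The sequences around their starts are shown for this pair, 300 bases each that reach from upstream of the start to just past it, as RefSeq gives them on GRCm38.p6 (Kdr at chr5:75978406-75978705 and Flt1 at chr5:147725962-147726261, both on the minus strand, matched by symbol). Capitals mark GGAAG or its reverse complement CTTCC, a form of the core read by ETS factors, which are active in endothelium. Other forms of that core are not marked.
Kdr: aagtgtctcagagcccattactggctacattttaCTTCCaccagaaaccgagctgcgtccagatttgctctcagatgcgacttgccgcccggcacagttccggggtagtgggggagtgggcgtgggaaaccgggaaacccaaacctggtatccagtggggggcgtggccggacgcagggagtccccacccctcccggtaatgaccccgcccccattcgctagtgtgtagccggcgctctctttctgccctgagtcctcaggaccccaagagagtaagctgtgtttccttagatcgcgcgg
Flt1: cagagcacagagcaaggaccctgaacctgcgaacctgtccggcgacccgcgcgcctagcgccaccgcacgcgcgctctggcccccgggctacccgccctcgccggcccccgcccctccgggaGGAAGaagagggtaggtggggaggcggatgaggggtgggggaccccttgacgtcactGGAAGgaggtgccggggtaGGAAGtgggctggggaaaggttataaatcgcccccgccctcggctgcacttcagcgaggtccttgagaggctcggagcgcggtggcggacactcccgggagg
The Kdr sequence held 1 marked stretch and was 60.7% G and C, and the Flt1 sequence held 3 and was 70.7% G and C. Searched on both strands, GGAAG was in the sequences of 6 of the 7 members found in the RefSeq table, and in 71.4% of the 32851 promoters of that length that were searched. Plvap, Pecam1 and Cdh5 had no sequence there and were not searched. A member counted if any of its promoters held the letters (Vegfa has 2), whereas the background is a share of single promoters. TATAAA was found in Flt1 among the 7 and in 13.6% of all promoters. The letters CACGTG, bound by factors such as TFEB, were in none of the 7 and in 7.15% of all promoters. The core ACGTG, which overlaps CACGTG and is read by hypoxia-inducible factors, was in 2 of the 7 (Ehd3 and Vegfa) and in 19.6% of all. Of the 2 Vegfa promoters, only 1 held it. AGATAA, read by GATA factors, was in 2 of the 7 and in 11.2% of all, and GGCGCC, found in SMAD-bound BMP target sites, was in 1 of the 7 and in 11.9% of all.

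**Figure D2:**
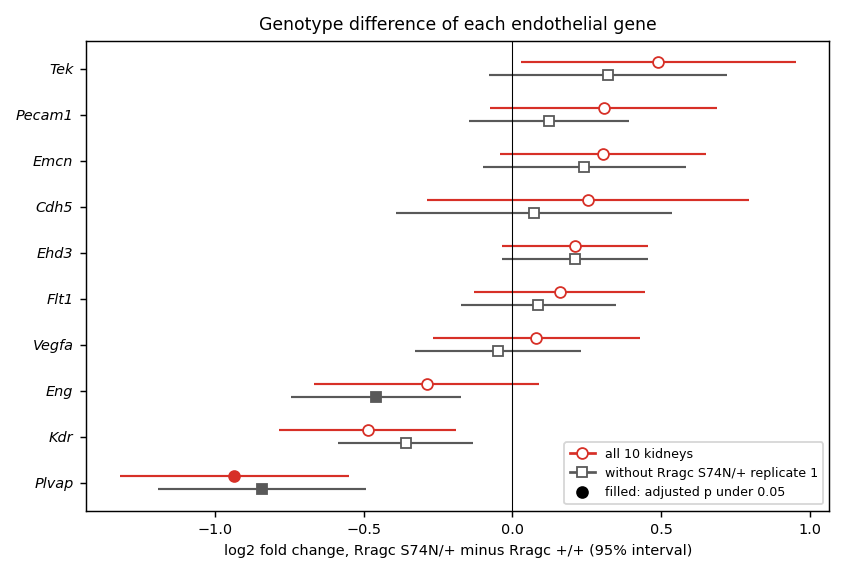
Log2 fold change (horizontal axis, Rragc S74N/+ minus Rragc +/+, with 95% interval) of the 10 genes, in all 10 kidneys (red circles) and without Rragc S74N/+ replicate 1 (grey squares); filled symbols have an adjusted p under 0.05 (limma). Plvap is filled in both, at -0.93 and -0.84, and Eng is filled without that kidney, at -0.46.

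Vegfa, the ligand, did not differ beyond the spread between kidneys. Its normalized counts were 868, 654, 659, 955 and 957 in wild-type kidneys. They were 1219.7, 774, 739.8, 951 and 680.1 in mutant kidneys. Replicate 1 of the mutant group lay above every other kidney and the remaining mutant values lay inside the wild-type range. The log2 fold change was 0.08 ± 0.16 (SE, 95% interval -0.27 to 0.43; adjusted p = 0.80, limma), and it turned to -0.048 without Rragc S74N/+ replicate 1 (limma, adjusted p = 0.88).

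Other ligands and receptors of the family moved in both directions. Of 6 tested, 1 rose and 1 fell, with a median of -0.21, and 6.03% of all tested genes were called. Nrp1, the neuropilin that holds VEGFA against VEGFR2 but is also made by other kidney cells, had 406, 376, 400.3, 388 and 512 normalized counts in wild-type kidneys. It had 700.3, 597, 573, 780.1 and 715 in mutant kidneys, all above the wild-type range, as was the case for 4.15% of all tested genes. The log2 fold change of Nrp1 was 0.69 ± 0.12 (SE; adjusted p = 0.0050, limma), and it passed in all 24 alternative fits. Vegfb, a ligand of VEGFR1, went from 384 ± 54.1 (SD, n = 5) to 234 ± 60.6 (SD, n = 5) normalized counts, with overlapping groups and a log2 fold change of -0.74 ± 0.17 (SE; adjusted p = 0.018, limma), which was lost in 7 of 24 alternative fits.

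Genes that lie downstream of VEGFR2, or that respond to the oxygen supply that controls VEGFA, were counted from lists. Of 22 relay and feedback genes of VEGFR2, none was called in either direction by limma (9 had an unadjusted p under 0.05, as did 25.4% of all tested genes) and their median was 0.10. Pik3r1, a regulatory subunit of PI3-kinase and the most abundant of them, had a log2 fold change of 0.31 ± 0.13 (SE; adjusted p = 0.14, limma). Of 16 hypoxia response genes, none rose and 2 fell (2.58% of all tested genes fell), with a median of -0.11. They were Egln1, an oxygen-sensing hydroxylase, at -0.97 ± 0.28 (SE; adjusted p = 0.049, limma), and Ndrg1, a stress-induced gene abundant in tubules, at -0.61 ± 0.16 (SE; adjusted p = 0.035, limma). Both calls were lost in many of the 24 alternative fits, 13 for Egln1 and 8 for Ndrg1.

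Tek encodes TIE2, the angiopoietin receptor, and had the largest positive fold change of the 10 genes without passing the threshold. Wild-type kidneys had 63.8, 52.0, 69.1, 75.1 and 84.6 normalized counts of Tek. Mutant kidneys had 155, 110.5, 80.0, 63.1 and 94.2. Although 3 mutant kidneys lay above the wild-type range, replicate 4 was near its lower end. The log2 fold change was 0.49 ± 0.22 (SE, 95% interval 0.03 to 0.95; adjusted p = 0.17, limma), or 0.32 ± 0.19 without Rragc S74N/+ replicate 1 (SE; adjusted p = 0.33, limma). None of 5 other genes of the angiopoietin and TIE list passed with limma, and their median was 0.35. Among them 1 had an unadjusted p under 0.05 (limma), as did 25.4% of all tested genes. Ptprb, the phosphatase that restrains TIE2 and the most abundant of them, had a log2 fold change of 0.40 ± 0.12 (SE; adjusted p = 0.059, limma). It passed with libraries scaled to equal totals, at 0.47 (limma, adjusted p = 0.036). That scaling raises fold changes in general, and 76.1% of its calls over all genes were higher rather than 57.3%.

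Eng encodes endoglin, and its result turned on a single kidney. Its normalized counts were 209, 192, 195, 266 and 245 in wild-type kidneys. Those of the mutant kidneys were 288, 154, 178, 139 and 171. Replicate 1 of the mutant group was above every wild-type kidney and the other 4 were below every wild-type kidney. With all kidneys the log2 fold change of -0.29 ± 0.18 (SE, 95% interval -0.67 to 0.09) did not pass (limma, adjusted p = 0.33). Without Rragc S74N/+ replicate 1 it was -0.46 ± 0.14 (SE) and passed narrowly (limma, adjusted p = 0.049).

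The ID genes, inhibitors of helix-loop-helix transcription factors and usual targets of BMP signalling through SMADs, were lower in the mutant kidneys. They were the 3 genes that fell among 14 tested in the endoglin and ALK1 list, where none rose and the median was -0.21. Of all tested genes, 2.58% fell. Id3 had 126, 192, 110.4, 68.1 and 108 normalized counts in wild-type kidneys and 13.1, 30.05, 44.0, 46.8 and 29.1 in mutant kidneys. Its log2 fold change was -1.90 ± 0.31 (SE; adjusted p = 0.0032, limma). Id1 averaged 130.5 ± 31.1 (SD, n = 5) in wild-type and 62.4 ± 17.2 (SD, n = 5) in mutant kidneys, a log2 fold change of -1.07 ± 0.21 (SE; adjusted p = 0.0088, limma). Id2, far more abundant, averaged 5023 ± 1073 (SD, n = 5) and 3031 ± 616 (SD, n = 5), a log2 fold change of -0.73 ± 0.17 (SE; adjusted p = 0.020, limma). In none of the 3 did the groups overlap, and 4.01% of all tested genes were lower without overlap. The calls of Id1 and Id3 held in all 24 alternative fits and that of Id2 was lost in 5. ID genes are also expressed by tubule cells, and whether changes in tubules bear on these values was not tested. Summed markers of the distal convoluted tubule were at 4652 to 5868 normalized counts in wild-type and 1426 to 2234 in mutant kidneys. Those of the proximal tubule overlapped between genotypes (1 of 8 lower). Most of that sum was Kap, which averaged 94161 normalized counts in wild-type kidneys, so the overlap says little of the other markers.

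**Figure D3:**
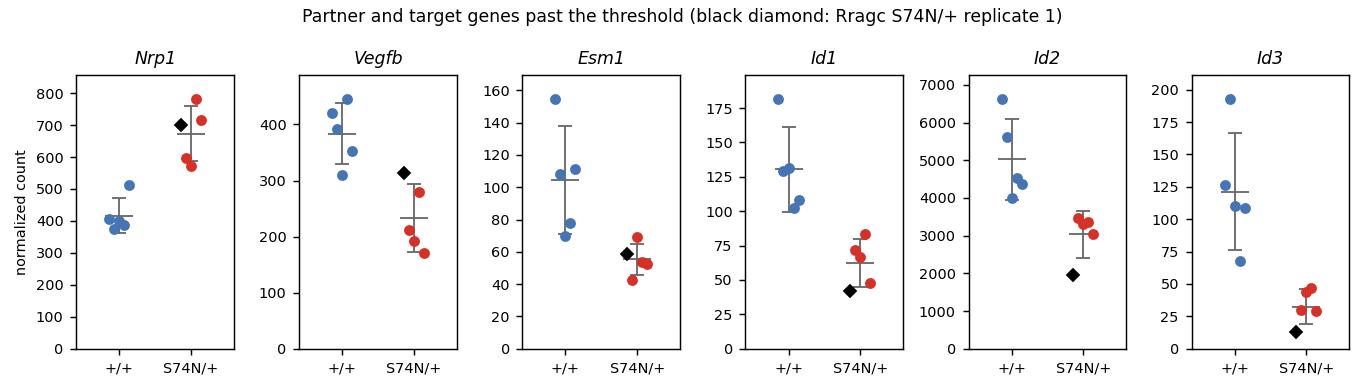
Normalized counts (vertical axes, from 0) of 6 partner and target genes past the threshold in each kidney, with Rragc +/+ in blue, Rragc S74N/+ in red and Rragc S74N/+ replicate 1 as a black diamond; lines mark the mean and the SD of 5 kidneys. Nrp1 is the gene that was higher in all 5 mutant kidneys, at 573 to 780.1, and the groups overlap for Vegfb.

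Pecam1 and Cdh5 encode the junction proteins PECAM1 and VE-cadherin and are used as general markers of endothelium. Pecam1 had 273, 248, 324, 285 and 262 normalized counts in wild-type kidneys. It had 569.8, 348, 241, 333 and 298 in mutant kidneys. The highest value belonged to Rragc S74N/+ replicate 1, and the log2 fold change moved from 0.31 ± 0.18 (SE; adjusted p = 0.30, limma) to 0.12 ± 0.13 (SE; adjusted p = 0.61, limma) without it. Cdh5 had 54.8, 67.6, 124, 76.8 and 131 normalized counts in wild-type kidneys. It had 171, 75.6, 96.0, 106 and 86.5 in mutant kidneys. The groups overlapped widely, with a log2 fold change of 0.26 ± 0.26 (SE, 95% interval -0.29 to 0.80; adjusted p = 0.56, limma), and 0.07 ± 0.22 without replicate 1 (SE; adjusted p = 0.89, limma).

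Other genes expressed throughout the endothelium were measured to place these values. Of 32 tested pan-endothelial genes, 2 rose and none fell, with a median of -0.07. Of all tested genes, 6.03% were called in either direction and 3.45% rose (limma). Nostrin, which binds and traffics the endothelial nitric oxide synthase, went from 15.9 ± 7.77 (SD, n = 5) to 51.2 ± 13.6 (SD, n = 5) normalized counts, a log2 fold change of 1.75 ± 0.35 (SE; adjusted p = 0.0096, limma). Tm4sf1, a membrane protein of endothelial protrusions, went from 86.5 ± 7.30 (SD, n = 5) to 129 ± 12.5 (SD, n = 5), a log2 fold change of 0.57 ± 0.14 (SE; adjusted p = 0.023, limma), which was lost in 8 of 24 alternative fits. Without Rragc S74N/+ replicate 1, 4 of the 32 genes passed (limma), and 6.80% of all tested genes passed in that fit. The additional calls, named after their values were seen, were Gpihbp1 at -1.02, which anchors lipoprotein lipase in capillaries, and Ramp2 at -0.62, a co-receptor for adrenomedullin (limma, adjusted p = 0.023 and 0.029). DESeq2 on 8 kidneys also called 4 of the list, all higher, where it called 10.6% of all genes in either direction. It added Ptprb at 0.47 and Cd34, a sialomucin, at 0.81 to Nostrin and Tm4sf1 (DESeq2, adjusted p = 0.022 and 0.031).

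Partners of VE-cadherin and PECAM1 at junctions were counted as well. Of 16 tested, 6 had an unadjusted p under 0.05 (limma), as did 25.4% of all tested genes, and the median was 0.14. At the threshold, 2 rose (3.45% of all tested genes rose) and none fell. They were Tjp1, the tight junction scaffold ZO-1, at 0.78 ± 0.22 (SE; adjusted p = 0.048, limma), and Afdn, which links junctions to actin, at 0.41 ± 0.11 (SE; adjusted p = 0.035, limma), and both are also expressed by epithelium. Their calls were lost in 15 and 11 of 24 alternative fits.

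Emcn and Ehd3 differ in where they mark the vasculature. Emcn encodes endomucin, a sialoprotein of capillaries and veins, and had 139.8, 89.5, 144, 112 and 109 normalized counts in wild-type kidneys. It had 173, 125, 170.0, 144 and 121 in mutant kidneys. The log2 fold change was 0.30 ± 0.16 (SE, 95% interval -0.04 to 0.65; adjusted p = 0.26, limma), or 0.24 ± 0.16 without Rragc S74N/+ replicate 1 (SE; adjusted p = 0.39, limma), and the groups overlapped. Ehd3, a membrane-trafficking ATPase that in the kidney marks glomerular endothelium, had 392, 333, 341, 389 and 374 in wild-type kidneys. It had 422, 488, 412, 453 and 348 in mutant kidneys, so 4 mutant kidneys lay above the wild-type range and replicate 5 lay within it. The log2 fold change of Ehd3 was 0.21 ± 0.12 (SE, 95% interval -0.04 to 0.46; adjusted p = 0.27, limma) and was the same without replicate 1.

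Markers of single vascular beds were counted from lists. Of all tested genes, 3.45% were called higher, 2.58% lower, and 25.4% had an unadjusted p under 0.05 (limma). Of 6 tested markers of glomerular endothelium, 1 rose and none fell, with a median of 0.58, and 1 had an unadjusted p under 0.05 (limma). It was Plat, tissue plasminogen activator, at 0.89 ± 0.23 (SE; adjusted p = 0.034, limma), whose highest value, 185 normalized counts, was that of Rragc S74N/+ replicate 1. Of 8 peritubular capillary markers, none rose and 1 fell, with a median of -0.40, and 5 had an unadjusted p under 0.05 (limma). Their log2 fold changes lay above zero in 3 and below it in 5. Igfbp5, the most abundant of them, was at 0.04 (limma, adjusted p = 0.93). Esm1, a proteoglycan released by VEGF-stimulated capillaries, was at 104 ± 33.4 (SD, n = 5) and 55.4 ± 9.61 (SD, n = 5) normalized counts, a log2 fold change of -0.86 ± 0.21 (SE; adjusted p = 0.026, limma). The calls of Plat and Esm1 were each lost in 8 of 24 alternative fits. None of 9 arterial and none of 5 lymphatic markers passed with limma, with medians of -0.39 and -0.27, and 3 and 1 of them had an unadjusted p under 0.05. Of 4 venous markers and of 9 genes of endothelial activation, 1 rose in each list and it was the same gene, with list medians of 0.42 and 0.53, and 1 and 6 had an unadjusted p under 0.05 (limma). Vcam1, an adhesion molecule for leukocytes that other kidney cells can also make, had a log2 fold change of 1.12 ± 0.26 (SE; adjusted p = 0.020, limma) and was lost in 5 of 24 alternative fits. A difference between the beds was not tested.

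**Figure D4:**
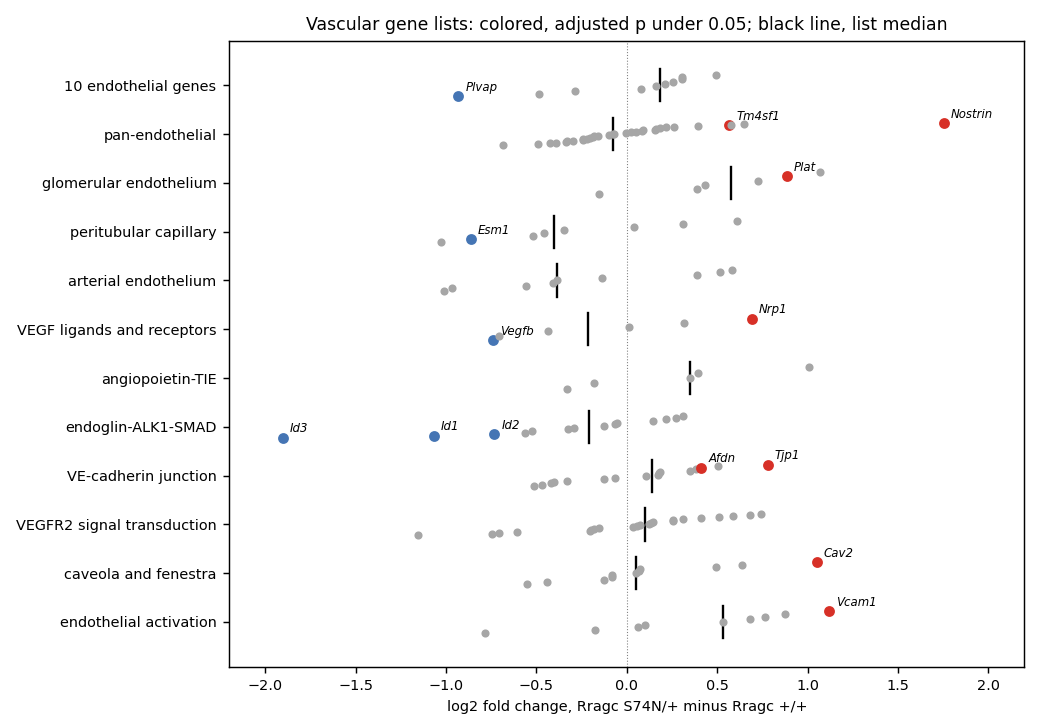
Log2 fold change (horizontal axis, Rragc S74N/+ minus Rragc +/+) of each tested gene in the 10-gene set and in 11 vascular lists, 1 dot per gene; colored and named dots have an adjusted p under 0.05 (limma; red higher, blue lower) and black lines mark list medians. Medians lie between -0.40 for peritubular capillary and 0.58 for glomerular endothelium, and Id3 at -1.90 and Nostrin at 1.75 are the outermost dots.

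Ratios within a kidney do not depend on how libraries are scaled. The 6 examined were chosen after the values of the members were seen and are given as a description, and 3 of them overlapped between genotypes. Plvap to Ehd3 was 0.755 ± 0.193 (SD, n = 5) in wild-type and 0.344 ± 0.112 (SD, n = 5) in mutant kidneys, and the groups did not overlap. Plvap to Emcn was 2.38 ± 0.759 and 0.998 ± 0.273 (SD, n = 5 each), again without overlap. Kdr to Pecam1 ran from 1.48 to 2.21 in wild-type and from 0.414 to 1.46 in mutant kidneys. Kdr to Flt1 was 0.959 ± 0.239 and 0.624 ± 0.181 (SD, n = 5 each), and those groups overlapped, as did Plvap to Pecam1, where Rragc S74N/+ replicate 3 reached 0.900. Vegfa to Kdr overlapped too, at 1.19 to 2.27 in wild-type and 1.71 to 5.17 in mutant kidneys.

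**Figure D5:**
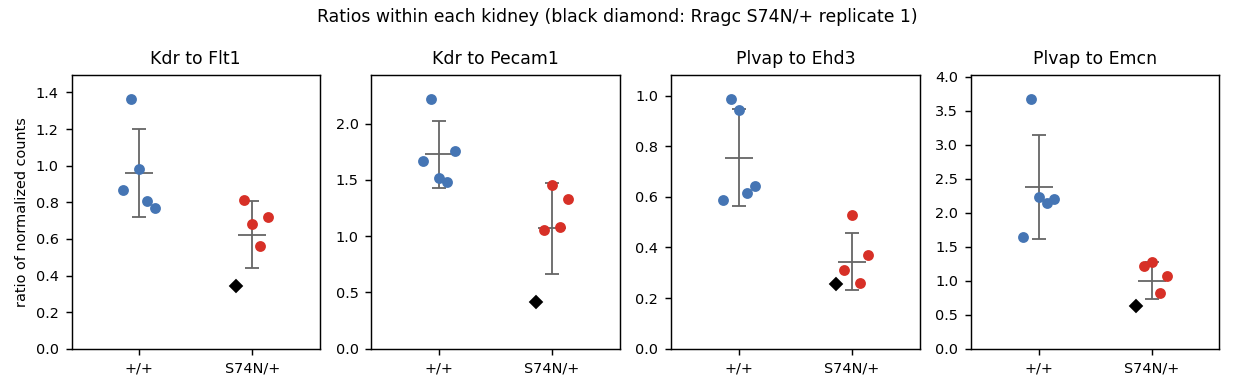
Ratio of normalized counts of 2 genes within each kidney (vertical axes, from 0) for 4 of the 6 ratios examined, with Rragc +/+ in blue, Rragc S74N/+ in red and Rragc S74N/+ replicate 1 as a black diamond; lines mark the mean and the SD of 5 kidneys. The groups overlap for Kdr to Flt1 and part for the other 3 ratios, where the mutant maxima are 1.46, 0.527 and 1.28.

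The order of the 10 genes by level was compared over all 10 kidneys, since 3′ counting gives about 1 read per captured transcript whatever its length. Mean normalized counts were 846 for Vegfa, 540 for Flt1, 409 for Kdr and 395 for Ehd3. Pecam1 followed at 318, Plvap at 208, Eng at 204 and Emcn at 133, and Cdh5 and Tek were lowest at 98.9 and 84.7. The order turned with genotype for some neighbours. Kdr averaged above Ehd3 in wild-type kidneys (475 and 366) and below it in mutant kidneys (343 and 425), and Plvap averaged above Eng in wild-type kidneys (272 and 222) and below it in mutant kidneys (145 and 186). For all 9 neighbouring pairs in this order the ranges over the kidneys overlapped. Capture at the 3′ end can differ between genes, which limits a comparison of levels.

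Among kidneys of 1 genotype the genes did not vary as 1 block. After the genotype means of the log2 values were removed, 28 of 45 pairs of genes had a positive Pearson correlation over the 10 kidneys, 14 exceeded 0.5, and the median was 0.22. Without Rragc S74N/+ replicate 1 the median was 0.09 and 4 pairs exceeded 0.5. Vegfa varied with Flt1 (r = 0.79, and 0.70 without that kidney) and Eng with Tek (0.81 and 0.59). Kdr went against Eng (-0.89 and -0.59) and against Vegfa (-0.86 and -0.78), and Plvap went against Vegfa as well (-0.74 and -0.66). Of 7732 other genes, those that varied most closely with the mean of the 9 endothelial genes were Myh11, St3gal6, Nop56, Tpm1, Ncam1 and Bspry, with r from 0.94 to 0.96 in all 10 kidneys and from 0.88 to 0.95 without Rragc S74N/+ replicate 1. These genes were picked by their r in the same kidneys, so neither range is a separate check. The values of a kidney share a library, and Myh11 and Tpm1 are abundant in smooth muscle.

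Markers of other kidney and blood cells moved with the genotype too, and their part in the results on the 10 genes was not tested. Of all tested genes, 3.45% were called higher and 2.58% lower (limma). The summed leukocyte markers, whose cells also carry Pecam1, were at 590 to 700 in wild-type and 942 to 1261 in mutant kidneys (2 of 11 higher, Ptprc and Lyz2; Cd3e was at 0 in at least 1 library). Platelet markers, another source of Pecam1, summed to 78.7 to 85.0 and 69.9 to 101, with none of 3 called by limma and none with an unadjusted p under 0.05. Podocyte markers, a source of Vegfa, summed to 1606 to 1791 and 1876 to 2250 (4 of 12 higher, none lower, with 8 log2 fold changes above and 4 below zero; Tcf21 was at 0 in at least 1 library). Synpo, the most abundant of them, was lost in 11 of 24 alternative fits, and Tcf21, named after its values were seen, was at -1.96 ± 0.63 without passing (SE; adjusted p = 0.075, limma). Those of pericytes and mesangium summed to 1233 to 1552 and 1496 to 2772 (2 of 12 higher, Rgs5 and Rgs4), and those of fibroblasts to 817 to 1442 and 1330 to 2489 (3 of 8 higher, among them Col1a1). Thick ascending limb markers summed to 11481 to 15448 and 5331 to 11495 (4 of 8 lower, among them Umod), and all 5 distal convoluted tubule markers were lower, among them Slc12a3 (Pvalb was at 0 in at least 1 library). Red cell markers summed to 11910 to 28565 and 2795 to 13809 (1 of 6 lower, Slc4a1). Hba-a2, the most abundant of them, had a log2 fold change of -0.88 and did not pass (limma, adjusted p = 0.091). In Rragc S74N/+ replicate 1, Hba-a2 was the lowest of the mutant kidneys at 1801, while Slc4a1 was at 56.0 (others 29.1 to 89.0). Slc4a1 did not follow Hba-a2 in that kidney, and whether it counts red cells alone in whole kidney was not tested. The summed proximal tubule markers, mostly Kap, overlapped between genotypes (1 of 8 lower, Slc5a2, whose groups did not overlap).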

How the data were processed

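Total RNA of whole kidney from 10 mice was sequenced from the 3′ end of mRNA. The authors checked reads with FastQC, used TopHat2 with Bowtie and SAMtools for alignment to GRCm39, and took sense-strand counts per gene from HTSeq. The deposited signal values are normalized counts, which the authors obtained by dividing read counts by a size factor for each library. The table holds 13299 genes, and how it was filtered is not given in the sources used here. Groups were taken from the genotype in the labels.

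Genes with at least 5 normalized counts in at least 5 libraries were fitted as log2 of the value plus 1 with limma 3.58.1 in R 4.3.3 (genotype only, variance trend, two-sided), with Benjamini-Hochberg adjustment over 13236 genes at 0.05. Fold changes of low genes are understated on this scale. In 8 libraries 100% of the values came out as whole reads (within 0.01 of a read), and edgeR 4.0.16 and DESeq2 1.42.0 were run on those reads as alternatives. The other 2 entered no count model. The labels do not number the animals, so p-values measure only the spread between these samples. The fits were tested on simulated data. Genes named are the 10 members, Rragc, list genes past the threshold or most abundant in their list, and the 6 genes that varied most with the members. The members and lists were chosen with earlier results of these data known.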

Additional observations from a re-analysis of the deposited data

Results flagged for a closer look

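Of 140 groups of values examined, 18 held a sample that lay apart from the rest by Dixon's criterion for 5 values, where chance gives about 7. In 13 of them the sample was Rragc S74N/+ replicate 1. The genes chosen because they varied with the members gave 4 of these 13, which that choice favours, and without those genes 14 of 128 groups held such a sample (9 of them Rragc S74N/+ replicate 1), where chance gives about 6.4. Among the 10 genes these were Kdr, at 236 normalized counts against 351 to 397 in the other mutant kidneys, and Eng, at 288 against 139 to 178. Among other vascular and signalling genes they were Plat at 185 (others 77.0 to 97.9), Id2 at 1966 (others 3044 to 3476) and Pik3r1 at 496 (others 385 to 396). Cldn10, a claudin of the thick ascending limb, was at 183 (others 379 to 459), and Hba-a2, an alpha globin, was at 1801 (others 5222 to 5973). The muscle and fibroblast genes were Tagln at 1022 (others 386 to 505), Pdgfra at 283 (others 154 to 182), Myh11 at 374 (others 79.7 to 87.6) and Tpm1 at 987 (others 589.7 to 666). St3gal6 was at 204 (others 129 to 146) and Nop56 at 166 (others 90.4 to 111).

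In Rragc +/+ replicate 3, Prox1, a lymphatic regulator also found in tubules, had 140.1 normalized counts (others 56.2 to 70.6), the sum of normalized counts was 4576639 (others 5001061 to 5087152) and mitochondrial transcripts took 35.8% of it (others 37.4% to 38.0%). In Rragc +/+ replicate 5, Nrp1 had 512 normalized counts (others 376 to 406). In Rragc S74N/+ replicate 4, Pvalb had 16.3 (others 0 to 3.88).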

How the results depend on the processing

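Of the 10 genes, Plvap kept its call in all 24 alternative fits, and Pecam1, Cdh5, Flt1, Emcn, Ehd3, Tek and Vegfa passed in none of them. The number of members called, 1 with the settings used, was 2 with a pseudocount of 5, a minimum mean of 50, equal 75th percentiles or robust eBayes, where Kdr was added, and 1 to 2 when 1 kidney was left out, with Eng added without Rragc S74N/+ replicate 1. The log2 fold change of Vegfa ran from -0.048 to 0.16 when 1 kidney was left out and was below zero without that same kidney. Kdr was not called in any of the 10 fits that left out a kidney (limma, adjusted p = 0.052 to 0.14).

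Genes called among all tested, 798 with the settings used, numbered 462 after scaling to an equal pan-endothelial level, 391 without the variance trend, 1402 by DESeq2, 187 at an adjusted p under 0.01, and 311 to 902 when 1 kidney was left out. The lowest counts were those that left out wild-type replicates 2 (311), 1 (368) and 4 (383) or mutant replicate 5 (371). The count of pan-endothelial genes called, 2 with the settings used, was 1 after scaling to an equal pan-endothelial level, 4 by DESeq2, 1 at an adjusted p under 0.01, and 1 to 4 when 1 kidney was left out. For the endoglin and ALK1 list the count of 3 ran from 2 to 4 when 1 kidney was left out. The cause of these shifts was not tested. No paired analysis was possible because the labels give no replicate numbers shared between the genotypes. A fit with sex as a term was not run, since all 10 libraries held reads of the Y-linked gene Ddx3y and Xist was not among the 13299 genes.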
